A study of Saccharomyces cerevisiae with 6 samples.

Results

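The cell wall stress sensors of Saccharomyces cerevisiae are a set of 6 genes, MID2, MTL1, SLG1, WSC2, WSC3 and WSC4, among the 6388 genes listed in this series. SLG1 is the standard name of the gene that most of the literature calls WSC1. The genes were chosen by name, as the plasma membrane proteins that report on the wall, and the rule uses no measured value, though the set was picked with earlier results of these data known. All of them were found in the deposited tables, 5 had enough ratios to be tested in both phases, and WSC4 had ratios in mid-exponential phase only.

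Each sensor is a protein with a single membrane span, a long serine- and threonine-rich outer part that carries many O-linked mannoses, and a short cytoplasmic tail. The Wsc proteins also hold a cysteine-rich head at the outer end, while Mid2 and Mtl1 form a related pair that lacks it. When the wall is stretched or weakened the tails recruit the exchange factor Rom2, which loads the GTPase Rho1. Rho1 turns on the kinase Pkc1 and through it a kinase cascade that ends in the MAP kinase Slt2, whose targets Rlm1 and SBF (Swi4 and Swi6) switch on wall genes. Knr4, the protein missing in the mutant, is tied to Slt2 and to the control of wall synthesis.

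The series held 6 spotted arrays with 2 colours, each setting RNA of a mutant fermentation against RNA of a wild-type one. The wild type was EC1118, an industrial wine yeast, and the mutant was EKD-13, the same strain with both copies of KNR4 deleted. No other allele or agent is named for either strain, and all mutant RNA came from that 1 recombinant strain. Fermentations ran at 28 °C in the synthetic must MS300, and 3 arrays were made at 10 g of released CO2 (mid-exponential phase) and 3 at 70 g (stationary phase). In each phase array 2 carried the mutant in Cy3, and arrays 1 and 3 carried it in Cy5. Per the labels, same-numbered arrays of the 2 phases shared the mutant's vessel (arrays 1), the wild type's (arrays 2) or both (arrays 3), so the phases are not independent fermentations. On stationary array 2 the mutant's vessel code, F13, and the wild type's, F22, differ in their first digit, unlike the codes on the other arrays. The codes alone do not say what that digit stands for. A value below is the log2 ratio of mutant over wild type on an array, averaged over the spots of the gene, so that 1 is a doubling in the mutant and -1 a halving. Levels in each strain are not given by these ratios, and in RNA of a whole culture a change in the share of cells in some state and a change per cell cannot be told apart. An adjusted p comes from limma over 4335 genes after Benjamini-Hochberg adjustment, an SD is over arrays, and values under 0.05 counted as passing.

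Spots gave a ratio for 77.0 to 85.6% of positions on the mid-exponential arrays and for 53.1 to 60.6% on the stationary ones. The deleted gene KNR4, listed in the reference as SMI1, had a ratio on mid-exponential array 3 only, at -4.51, and in the authors' deposited table it stood at -1.89 in mid-exponential and -1.74 in stationary phase. Of 12 genes that mark haploid cells and 10 that mark sporulating cells, 4 and 1 had enough ratios to be tested. Neither limma nor the authors' deposited table called any of them in either phase, and 1 of each list had an unadjusted p under 0.05 in stationary phase, both lower. Of all 4335 genes tested, 1043 had such a p there, higher or lower. Of 36 possible values of the sensors 30 were measured, 26 of them on 2 spots that differed by 0.006 to 0.976 (median 0.099) and 4 on 1 spot.

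MID2 was the sensor with the highest mutant over wild-type ratio in mid-exponential phase, and WSC2 had the highest in stationary phase, although in the authors' deposited table MID2, at 0.60, stood above WSC2, at 0.40, in stationary phase too. MID2 rose in both phases, 5.68-fold and then 2.76-fold. WSC2 stood near 0 in mid-exponential phase and rose 4.90-fold in stationary phase, on the 2 arrays that measured it. MTL1, SLG1 and WSC3 did not pass in either phase. By count, limma called 1 of the 5 tested sensors higher in mid-exponential phase, where it called 7 of 4335 genes (0.161%) higher and 2 (0.0461%) lower. It called 2 of 5 higher in stationary phase, where it called 128 genes (2.95%) higher and 78 (1.8%) lower. The median of the 5 tested sensors was 0.55 in mid-exponential and 0.10 in stationary phase, beside -0.01 and -0.02 over all genes tested.

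**Figure D1:**
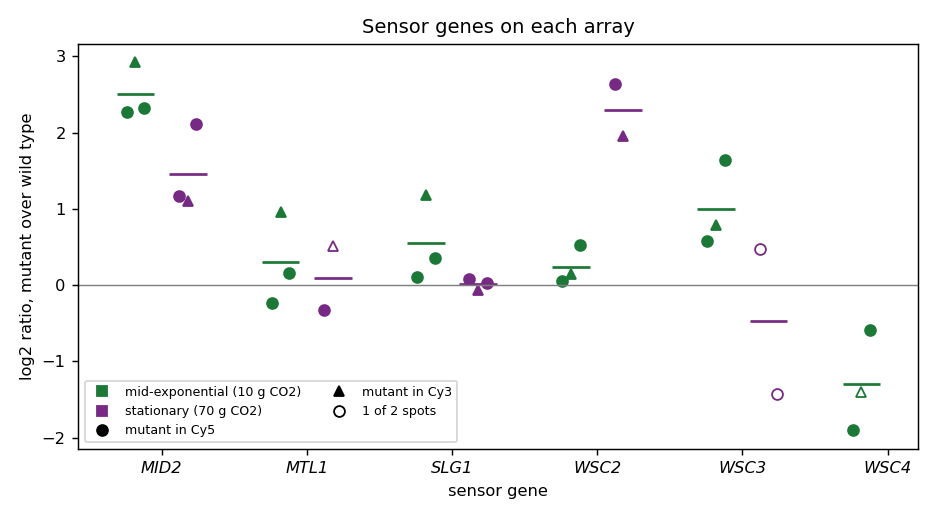
Log2 ratio of mutant over wild type (vertical axis) for each sensor gene on each array, green for mid-exponential and purple for stationary phase; triangles mark arrays with the mutant in Cy3, open symbols values from 1 of 2 spots, and bars the phase mean. MID2 lies between 1.10 and 2.92 on all 6 arrays, WSC2 lies at 1.95 and 2.64 in stationary phase and between 0.05 and 0.53 before it, and WSC4 is below 0 on each of its 3 arrays.

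MID2 (YLR332W) encodes a sensor known for its need in cells exposed to mating pheromone and to wall-binding dyes. Its log2 ratio was 2.27, 2.92 and 2.33 on mid-exponential arrays 1, 2 and 3, and 1.17, 1.10 and 2.12 on the stationary arrays. Every array stood above 1. The ranges of the phases did not overlap, and the share of all genes for which this holds was not counted. MID2 was one of the 266 genes above 0 on all 6 arrays among the 3061 genes measured on all of them (8.69%). Of the chromosome XII genes so measured, 51.7% were above 0 on each array. Only 8 of the 3061 genes (0.261%) were above 1 on each array, and MID2 was among these too. The limma mean was 2.51 ± 0.36 (SD, n = 3; 95% interval 1.88 to 3.13) in mid-exponential phase (adjusted p = 0.0416) and 1.46 ± 0.57 (SD, n = 3; 0.84 to 2.09) in stationary phase (adjusted p = 0.036). Of all genes tested, 99.9% lay below it in mid-exponential and 96.1% in stationary phase. The stationary mean was lower by 1.04 on the log2 scale (interval of the difference -1.92 to -0.16), and this difference did not pass (limma adjusted p = 0.323). In the authors' deposited table MID2 passed in both phases, at 1.33 (adjusted p = 0.000248) and 0.60 (adjusted p = 0.00345).

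The calls of MID2 were close to the threshold although its ratios were not close to 0. With the array number as a replicate block, its means were the same and neither passed (limma adjusted p = 0.252 and 0.121). That block takes up the partly shared vessels and also the dye, as only array 2 of each phase carried the mutant in Cy3. It cannot tell vessel and dye apart, and it called 0 of 4240 genes higher and 0 lower in either phase. In mid-exponential phase MID2 no longer passed without array 1, 2 or 3 of that phase (limma adjusted p = 0.228, 0.369 and 0.318), without stationary array 1 (0.101) or 3 (0.051), or with a term for the dye (0.0969), while its mean stayed between 2.30 and 2.62 when an array was left out. Without mid-exponential array 1, 2 or 3 or stationary array 1, limma called 0 genes higher and 0 lower in mid-exponential phase. Without stationary array 3, or with the dye term, it called 1 higher and 0 lower there. The lost calls were therefore not particular to MID2. In stationary phase the mean of MID2 stayed between 1.14 and 1.65, and leaving out any array but stationary 2 gave an adjusted p between 0.074 and 0.0998. Those fits called 3 to 18 genes higher in stationary phase, against 128 with all arrays.

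MID2 lies on chromosome XII, and the genes of that chromosome stood higher in the mutant as a group. The median over its tested genes, 367 in all, was 0.62, 0.80 and 0.63 on the mid-exponential arrays and 0.62, 0.49 and 0.97 on the stationary ones. Array medians of the other chromosomes lay between -0.37 and 0.27. The ratio of MID2 to its own chromosome is therefore given beside its ratio to the whole array. Above the median of chromosome XII, MID2 stood at 1.65, 2.12 and 1.70 on the mid-exponential arrays, a mean of 1.82 ± 0.26 (SD, n = 3), or 3.54-fold. On the stationary arrays it stood at 0.56, 0.61 and 1.15 above it, a mean of 0.77 ± 0.33 (SD, n = 3), or 1.71-fold. All 6 of these values were above 0. Again the phases did not overlap, and the share of all genes for which this holds was not counted.

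After the median of the chromosome was subtracted from its genes, MID2 did not pass in either phase. The limma intervals were 1.36 to 2.29 (adjusted p = 0.0601) and 0.31 to 1.23 (adjusted p = 0.0973), both under 0.05 before adjustment. With this subtraction limma called 2 genes (0.0461%) higher in mid-exponential phase and 71 (1.64%) in stationary phase. With robust variances, the fit that keeps genes measured on all 6 arrays, or arrays brought to 1 spread, MID2 passed in mid-exponential phase at 1.82, 1.87 and 2.29 (adjusted p = 0.0349, 0.0397 and 0.00593). It did not pass there with a dye term, the replicate block or each phase fitted alone (limma adjusted p = 0.132, 0.377 and 0.175). As arrays were left out, the limma adjusted p ran from 0.0568 to 0.477. The difference between phases was -1.05 on this scale (-1.71 to -0.40, limma adjusted p = 0.229).

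MID2 ranked lower within its chromosome on the stationary arrays, where the ratios of the chromosome were also more spread out. Percentile 95 of the chromosome's tested genes was 1.53, 1.79 and 1.58 on the mid-exponential arrays and 2.32, 2.03 and 2.83 on the stationary ones. The difference of MID2 between phases did not pass after the chromosome's median was subtracted (limma adjusted p = 0.229). On the mid-exponential arrays 3, 2 and 6 genes of chromosome XII had a higher ratio, and no tested gene of the chromosome had a higher mean over the phase. On the stationary arrays 85, 60 and 42 genes were above MID2, and 62 had a higher mean, some of them over 2 arrays only. Of the chromosome's tested genes limma called 5 higher in mid-exponential (1.36%) and 58 in stationary phase (15.8%), against 2 (0.0504%) and 70 (1.76%) of the 3968 tested on the other chromosomes. All 8 genes that were above 1 on every array lie on chromosome XII: RAX2, NYV1, LCL2, SLX4, SEC10, SEC72, HRI1 and MID2.

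**Figure D2:**
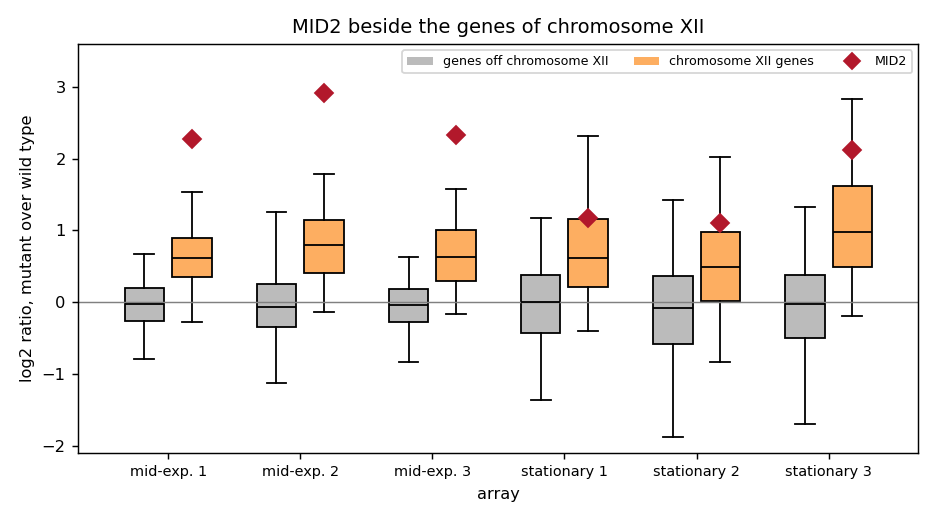
Log2 ratio of mutant over wild type on each array (vertical axis) for genes off chromosome XII (grey) and tested chromosome XII genes (orange), as boxes from the lower to the upper quartile with the median as a line and whiskers at the percentiles 5 and 95; red diamonds are MID2. MID2 lies above the upper whisker of its chromosome on the 3 mid-exponential arrays and within the whiskers on the 3 stationary ones, where 85, 60 and 42 genes of the chromosome exceed it.

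Of the tested genes nearest to MID2 along the chromosome, 2 on each side, TMA10 was high in mid-exponential phase and lower in stationary phase, as MID2 was. TMA10, which is not its direct neighbour and whose protein associates with ribosomes, stood at 1.94 ± 0.80 (SD, n = 3) in mid-exponential and 0.81 ± 0.26 (SD, n = 2) in stationary phase. JIP3, a reading frame that overlaps MID2 on the opposite strand in the R64 annotation, stood at 0.76 ± 0.63 and 0.22 ± 0.48 (SD, n = 3 each). On the other side RPS25B, for a protein of the small ribosomal subunit, stood at 0.22 ± 0.04 and 0.73 ± 0.28, and NUP2, for a nucleoporin, at 0.70 ± 0.15 and 1.67 ± 1.14 (SD, n = 3 each). None of these 4 passed in either phase (limma adjusted p from 0.0638 to 0.682). The strand of the printed sequences is not given in the sources used here, so the transcripts of MID2 and JIP3 cannot be told apart where they overlap.

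The genes with the ratios nearest to those of MID2, by the root mean square difference over the 6 arrays among 3061 genes, were PUN1 (0.67), SLX4 (0.70) and IMD1 (0.84). PUN1, on chromosome XII, encodes a plasma membrane protein and stood at 1.80 ± 0.19 and 1.07 ± 0.29 (SD, n = 3 each). SLX4, also on chromosome XII, encodes a scaffold for nucleases and stood at 1.56 ± 0.42 and 1.5 ± 0.47. IMD1 belongs to the near-identical IMP dehydrogenase genes, which can share a spot, and its 1.60 ± 0.05 and 0.97 ± 0.10 are uncertain as values of that gene. Their Pearson r with MID2 over the 6 arrays was 0.83, 0.56 and 0.72, as a description of 6 arrays that share vessels and dyes.

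MTL1 (YGR023W), the relative of MID2 on chromosome VII, is known for its part in the response to oxidative and glucose-starvation stress. Its log2 ratio was -0.23, 0.96 and 0.16 on the mid-exponential arrays and -0.32 and 0.51 on stationary arrays 1 and 2, the second of these from 1 spot. Values lay on both sides of 0 in each phase, and array 2, with the mutant in Cy3, was the highest in both. The mean was 0.30 ± 0.61 (SD, n = 3; interval -0.46 to 1.06) and then 0.10 ± 0.59 (SD, n = 2; -0.84 to 1.03), with limma adjusted p of 0.753 and 0.898. The stationary interval takes in levels up to 2.04-fold higher and 1.79-fold lower in the mutant, so changes within that range are not excluded. On each mid-exponential array MID2 was at least 1.96 above MTL1.

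SLG1 (YOR008C), on chromosome XV, encodes Wsc1, the main sensor of heat and hypo-osmotic stress, which clusters at sites of growth. It was the other member, beside MID2, to be measured on all 6 arrays. Its log2 ratio was 0.11, 1.18 and 0.35 in mid-exponential phase and 0.08, -0.06 and 0.03 in stationary phase. All 3 mid-exponential values exceeded the stationary ones, and the share of all genes for which this holds was not counted. The difference between phases did not pass (limma adjusted p = 0.522). Mid-exponential array 2, with the mutant in Cy3, stood apart from its neighbours. The mean was 0.55 ± 0.56 (SD, n = 3; interval -0.01 to 1.10, limma adjusted p = 0.373) and 0.02 ± 0.07 (SD, n = 3; -0.54 to 0.57, limma adjusted p = 0.968). The interval of the stationary mean ends at 1.49-fold higher and 1.45-fold lower in the mutant. Without mid-exponential array 2 the first mean was 0.23, and with a dye term it was 0.62.

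The well of SLG1 decides its value. It stands in row E of printing plates 10 to 19, where well names occur both with and without a letter b. Bright genes of wells with the letter followed the authors' deposited fold changes at r = 0.973 over 22 genes in mid-exponential and 0.966 over 17 in stationary phase, as other wells did (0.973 and 0.915), while the same wells without the letter gave 0.416 and 0.452. SLG1 itself was left out of these counts. The well with the letter was used. The plain well gave SLG1 values of 0.21, -0.06 and 0.00 in mid-exponential phase, a mean of 0.05 ± 0.14 (SD, n = 3), and the authors' deposited table listed 0.45 (adjusted p = 0.097).

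**Figure D3:**
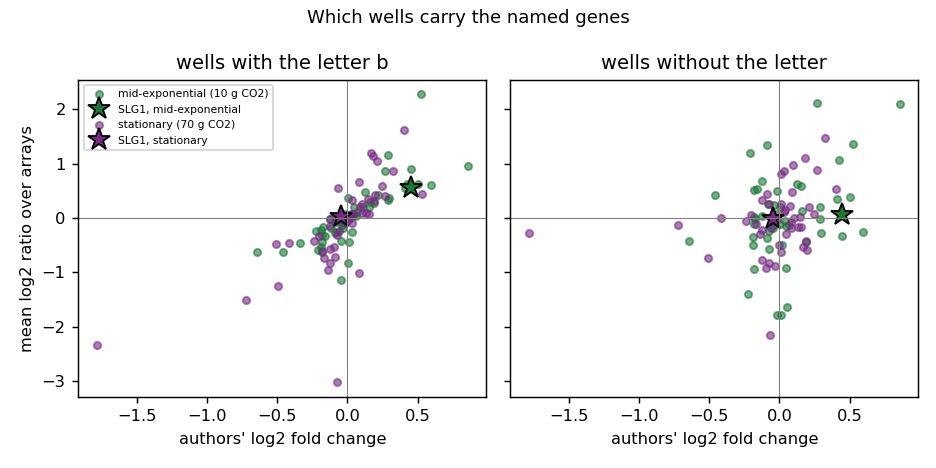
Mean log2 ratio over the arrays of a phase (vertical axis) against the log2 fold change of the authors' deposited table (horizontal axis) for genes of row E of plates 10 to 19, read from wells with the letter b (left) or from the same wells without it (right); green is mid-exponential and purple stationary phase, stars are SLG1, and genes of all brightness are drawn. Most points follow a line on the left, and points scatter more widely on the right.

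The profiles nearest to SLG1 over the 6 arrays were those of DBP3 (root mean square difference 0.085), SRM1 (0.14) and YPL039W (0.16). DBP3 encodes a helicase of ribosome assembly and stood at 0.48 ± 0.55 and 0.02 ± 0.19, and SRM1 encodes the exchange factor of the nuclear transport GTPase and stood at 0.46 ± 0.57 and -0.13 ± 0.07 (SD, n = 3 each). They shared with SLG1 the high value on mid-exponential array 2. The part of the dye or of that array in this likeness was not tested.

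WSC2 (YNL283C), on chromosome XIV, encodes a sensor close in build to Wsc3, and its loss matters most in cells that already lack Wsc1. Its log2 ratio was 0.05, 0.15 and 0.53 in mid-exponential phase, and 2.64 and 1.95 on stationary arrays 1 and 2, with no ratio on array 3. Both stationary values were above 1.9 and all earlier ones below 0.6, and the share of all genes whose phases do not overlap was not counted. In mid-exponential phase the mean was 0.24 ± 0.25 (SD, n = 3; interval -0.29 to 0.78, limma adjusted p = 0.704). In stationary phase it was 2.29 ± 0.48 (SD, n = 2; 1.64 to 2.95), and 99.1% of the genes tested lay below it (limma adjusted p = 0.0273). The difference between phases was 2.05 (interval 1.21 to 2.9), which did not pass over all genes (limma adjusted p = 0.153).

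That stationary call rests on few spots. With the replicate block, which called 0 genes, WSC2 stood at 2.44 and did not pass (limma adjusted p = 0.117). The pair of spots differed by 0.98 on stationary array 1 and by 0.13 on array 2. Leaving out any mid-exponential array gave an adjusted p between 0.0663 and 0.0847 with the same mean, and without stationary array 1 or 2 a single ratio was left and no test was made. Without mid-exponential array 1, 2 or 3 limma called 10, 5 and 3 genes higher in stationary phase. In the authors' deposited table WSC2 stood at 0.40 in stationary phase (adjusted p = 0.078), so the direction was shared and the call was not.

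WSC3 (YOL105C), on chromosome XV, encodes a close relative of Wsc2, and its log2 ratio was 0.57, 0.78 and 1.65 in mid-exponential phase. In stationary phase it was 0.48 on array 1 and -1.42 on array 3, each from 1 spot, and array 2 gave none. Its mid-exponential values were all above 0 and its stationary values lay on both sides of it. The mean was 1.00 ± 0.57 (SD, n = 3; interval -0.07 to 2.07, limma adjusted p = 0.395) and -0.47 ± 1.35 (SD, n = 2; -1.78 to 0.83, limma adjusted p = 0.622). The authors' deposited table listed 0.23 and 0.02, with adjusted p of 0.378 and 0.98.

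WSC4 (YHL028W), on chromosome VIII, encodes the least-studied Wsc protein, and its log2 ratio was -1.91, -1.40 and -0.59 in mid-exponential phase, the middle value from 1 spot. It was the only sensor below 0 on every array that measured it. It had no ratio on any stationary array and so was not in the fit of both phases. In a limma fit of the mid-exponential arrays alone its mean was -1.30 ± 0.66 (SD, n = 3; interval -2.13 to -0.47), which did not pass (adjusted p = 0.138). That fit called 0 of 5673 genes higher and 0 lower, so not passing there does not set WSC4 apart. WSC4 had a limma p of 0.0125 before adjustment, and 1243 of the 5673 genes had one under 0.05. The authors' deposited table listed -0.26 (adjusted p = 0.129) and, in stationary phase, -0.10 (adjusted p = 0.706).

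Ordered by their mid-exponential log2 ratio, the sensors ran from MID2 at 2.51 through WSC3 at 1.00, SLG1 at 0.55, MTL1 at 0.30 and WSC2 at 0.24 to WSC4 at -1.30. The arrays of WSC3, SLG1 and MTL1 overlapped in range, as did those of SLG1, MTL1 and WSC2, so the order of neighbours there is within the spread. Every array of WSC3 was above every array of WSC2. The lowest array of MID2 was above the highest of WSC3, and the highest array of WSC4 was below the lowest of MTL1. In stationary phase the order was WSC2 at 2.29, MID2 at 1.46, MTL1 at 0.10, SLG1 at 0.02 and WSC3 at -0.47. In the authors' deposited table it was MID2 at 0.60, WSC2 at 0.40, WSC3 at 0.02, MTL1 at 0.00 and SLG1 at -0.04. Over the stationary arrays the ranges of WSC2 and MID2 overlapped, as did those of MTL1, SLG1 and WSC3. On stationary arrays 1 and 2, though, WSC2 stood above MID2 on the same array. Taken as differences between phases, none of the 5 tested sensors passed with limma, where 2 genes (0.0461%) passed as higher and 3 (0.0692%) as lower in stationary phase. MID2 and WSC2 had an unadjusted p under 0.05 for this difference, as had 553 of the 4335 genes tested.

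The refit and the authors' deposited table gave the same direction for each sensor that passed in either, and different sizes. For MID2 the refit was 1.88 times the authors' log2 value in mid-exponential and 2.46 times in stationary phase, and for WSC2 in stationary phase it was 5.8 times. The gap grew as spots became dim. Genes were split into 4 groups of about equal size by the authors' mean intensity. The slope of the refit on the authors' values fell from 4.83 in the dimmest group to 1.19 in the brightest in mid-exponential phase, and from 13.01 to 1.52 in stationary phase. SLG1 lay in the brightest group in both phases and MID2 in the next. WSC2 lay in the one below, and WSC4 in the dimmest, where 62.0% of genes had no stationary ratio. MTL1 and WSC3 also lay in the dimmest group in mid-exponential phase. In stationary phase WSC3 lay in the group of WSC2 and MTL1 in that of MID2. The cause of this gap was not tested, and the sizes of the dim sensors are less certain than those of MID2 and SLG1.

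**Figure D4:**
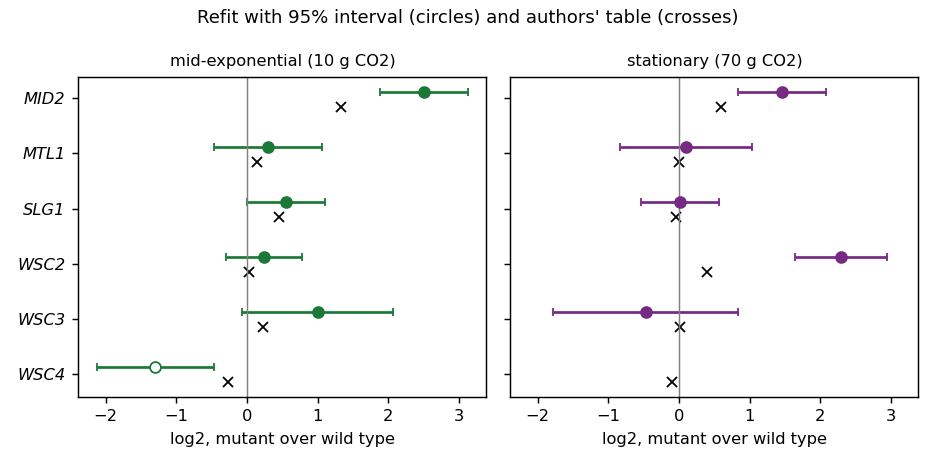
Log2 ratio of mutant over wild type (horizontal axis) for each sensor in mid-exponential (left) and stationary phase (right): circles are the limma mean of the array ratios with its 95% interval, and crosses are the authors' deposited values. The open circle of WSC4 is from the fit of mid-exponential arrays alone. MID2 lies at 2.51 against 1.33 and WSC2, in stationary phase, at 2.29 against 0.40.

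Around the sensors, 46 genes of the pathway were read, 38 of them tested. In mid-exponential phase 28 of the 38 had a mean above 0, none passed, and 10 had an unadjusted p under 0.05, all of them higher. Over all 4335 genes tested, 48.1% were above 0 and 581 had an unadjusted p under 0.05, higher or lower. The median of the 38 was 0.25. In stationary phase 4 passed, all higher, where limma called 2.95% of all genes higher, and none passed with the replicate block, which called 0 genes. Of the 38, 24 had a mean above 0, against 48.5% of all genes, and the median was 0.17. There 9 had an unadjusted p under 0.05 as higher and 2 as lower, where 1043 of all 4335 genes had one, higher or lower. Of the 46, the authors' deposited table called 11 higher in mid-exponential and 5 in stationary phase and none lower, where it called 5.67% and 2.04% of its genes higher and 4.63% and 2.14% lower. On chromosome XII lie 6 of the 46, namely ROM2, TUS1, SWI6, NCW2, FKS1 and YPS1, the chromosome whose genes as a group stood higher.

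Among the proteins that bind or modify the sensors, none of 6 passed in either phase, and their medians were 0.08 and 0.22. The list holds ZEO1, whose product binds the tail of Mid2, ACK1, the mannosyltransferase genes PMT1, PMT2 and PMT4, and END3, needed for endocytosis. The smallest p of each phase belonged to ZEO1 at 0.38 ± 0.23 (SD, n = 3; limma adjusted p = 0.585) and to PMT4 at 0.52 ± 0.50 (SD, n = 3; adjusted p = 0.209). No member of the list had an unadjusted p under 0.05.

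Of Rho1 and its regulators 7 of 9 were tested and none passed with limma in either phase, with medians of 0.37 and 0.17. RHO1 itself stood in a well whose name could not be relied on and has no array ratio here. ROM2, the exchange factor that the sensors recruit, had the smallest p in both phases and the only one under 0.05 unadjusted. Its log2 ratio was 1.43, 0.51 and 1.21, then 0.71, 0.57 and 1.74, so all 6 arrays were above 0. The mean was 1.05 ± 0.48 (SD, n = 3; adjusted p = 0.196) and 1.01 ± 0.64 (SD, n = 3; adjusted p = 0.107), and ROM2 lies on chromosome XII, whose median was 0.68 and 0.69.

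In the Pkc1 to Slt2 cascade 4 of 6 genes were tested, with medians of 0.72 and 0.29. KDX1, for a pseudokinase that resembles Slt2 and is itself induced through Rlm1, passed in stationary phase. Its log2 ratio was 1.39, 3.21 and 2.52 in mid-exponential phase, a mean of 2.37 ± 0.92 (SD, n = 3; limma adjusted p = 0.108). In stationary phase it was 3.49 and 4.35 on arrays 1 and 2, a mean of 3.92 ± 0.60 (SD, n = 2; limma adjusted p = 0.0273). The authors' deposited table called KDX1 higher in mid-exponential phase, at 1.01 (adjusted p = 0.000711), and not in stationary phase, at 0.28 (adjusted p = 0.142). It also called SLT2 higher in mid-exponential phase, at 0.62 (adjusted p = 0.00901). Of the 4 phosphatases of the cascade none passed with limma, and their medians were 0.10 and -0.23. In stationary phase SDP1, for a stress-induced phosphatase of Slt2, had the smallest p, at -1.35 ± 1.11 (SD, n = 2; limma adjusted p = 0.149). Among them the authors' deposited table called PTP2 higher in mid-exponential phase, at 0.42 (adjusted p = 0.0213). PTP2 stood at 1.22, 1.06 and 1.51 on those arrays, a mean of 1.26 ± 0.23 (SD, n = 3; limma adjusted p = 0.108).

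All 4 nuclear factors of the pathway were tested, with medians of 0.49 and 0.58, and SWI4 and SWI6, the subunits of SBF, passed in stationary phase. SWI4 was at -0.07, 0.38 and -0.11 in mid-exponential phase and at 1.64 and 1.97 on stationary arrays 1 and 2, a mean of 1.81 ± 0.23 (SD, n = 2; limma adjusted p = 0.0278). SWI6 was at 1.16, 0.87 and 1.46 and then at 1.09, 1.01 and 1.62, with means of 1.16 ± 0.30 (SD, n = 3; limma adjusted p = 0.101) and 1.24 ± 0.33 (SD, n = 3; limma adjusted p = 0.0313). SWI6 lies on chromosome XII and SWI4 on chromosome V. The authors' deposited table did not call SWI4, at 0.08 in stationary phase (adjusted p = 0.783). It called SWI6 higher in mid-exponential phase, at 0.51 (adjusted p = 0.0126), and not in stationary phase, at 0.43 (adjusted p = 0.0751), the reverse of the refit.

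Of 12 wall genes that depend on Rlm1, 10 were tested, with medians of 0.41 and 0.42, and FKS1, for a catalytic subunit of beta-1,3-glucan synthase, passed in stationary phase. FKS1, on chromosome XII, was at 1.06, 0.83 and 1.40 in mid-exponential phase and at 1.60, 0.90 and 2.10 in stationary phase, a mean of 1.53 ± 0.60 (SD, n = 3; limma adjusted p = 0.0323). NCW2, for a wall protein, also on chromosome XII, had the smallest mid-exponential p, at 1.34 ± 0.32 (SD, n = 3; limma adjusted p = 0.0925). The authors' deposited table called 7 of the 12 higher in mid-exponential phase, with YPS1, for a wall protease, highest at 1.47 (adjusted p = 5.77e-05), and it called 5 higher in stationary phase. Off chromosome XII its mid-exponential calls were CRH1 at 0.64, PIR3 at 0.68, CIS3 at 0.79 and SED1 at 0.55 (adjusted p = 0.0104, 0.0218, 0.0112 and 0.0023). In stationary phase they were HSP150 at 0.73, CIS3 at 0.51 and SED1 at 0.87 (adjusted p = 0.0439, 0.0455 and 0.00706). YPS1 stood in a well that could not be relied on and has no array ratio here.

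Plasma membrane proteins of another stress pathway, HOG, served as a comparison. Of SHO1, SLN1, MSB2, HKR1 and OPY2, 3 were tested and none passed with limma, with medians of -0.01 and -0.02. OPY2, a membrane anchor, had the smallest p in mid-exponential phase, at 0.30 ± 0.36 (SD, n = 3; adjusted p = 0.691), and SLN1, the osmosensing histidine kinase, in stationary phase, at -0.81 ± 0.39 (SD, n = 2; adjusted p = 0.164). The authors' deposited table called none of the 5 in either phase.

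**Figure D5:**
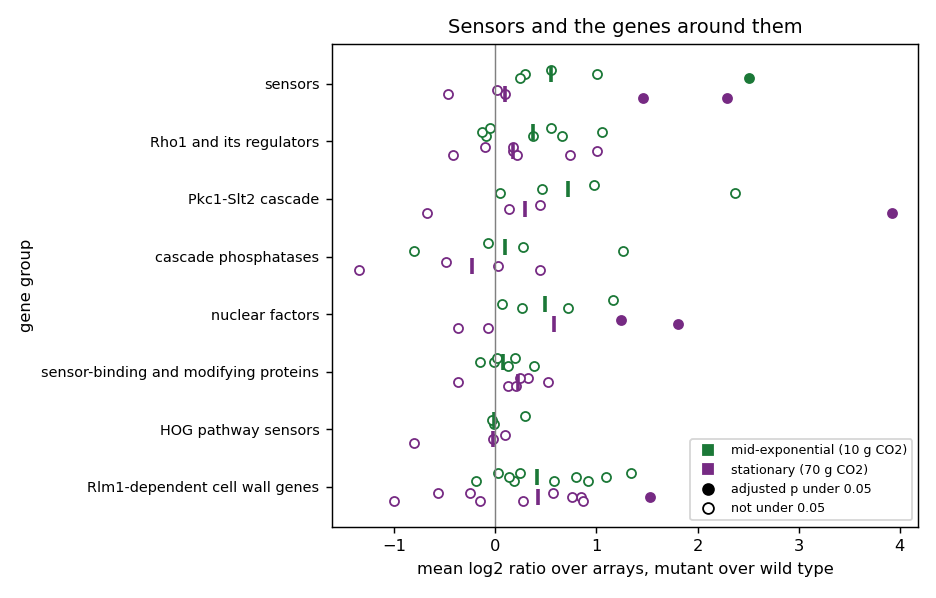
Mean log2 ratio of mutant over wild type (horizontal axis) of each tested gene, by group (vertical axis), green for mid-exponential and purple for stationary phase; filled circles passed with limma and short bars are medians. In mid-exponential phase MID2 is the only filled circle, and in stationary phase MID2, WSC2, KDX1, SWI4, SWI6 and FKS1 are filled.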

How the data were processed

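The authors deposited, for each array, a log2 ratio per spot (mutant over wild type), made with R 2.9.2 and limma per the submitters' processing notes. How background was corrected, arrays were normalized and spots were filtered is not given in the sources used here. Per the file headers, the authors' deposited limma tables (one per phase, 6388 genes) hold for each gene its mean intensity and fold change on the log2 scale, a moderated t (a score), p-values before and after adjustment and, in stationary phase, a linear ratio.

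Spots took gene names through plate wells. In row E of plates 10 to 19, 59 genes were read from wells with the letter b and 171 were left out, which left 6215. Symbols and gene order came from the R64 reference (5849 genes matched), and chromosomes from systematic names. Spots of a gene were averaged. limma 3.58.1 (R 4.3.3) was fitted to all 6 arrays with a mean per phase, for the 4335 genes with at least 2 ratios in each phase. The prior had 2.27 degrees of freedom. Two-sided p-values were adjusted by Benjamini-Hochberg and called at 0.05, and the code was tested on simulated data. Tables were made with Python 3.11.15 and pandas 2.3.3. Members and lists were chosen with earlier results of these data known. Named genes are the members, KNR4, list genes that passed (or the smallest p of a list without one, and genes the authors' table called), the 3 nearest profiles, and the neighbours of MID2 among tested genes. Rlm1-dependent genes with a stationary mean below 0 are named too. Ratios carry no read depth: the number of arrays limits the precision. Within a phase the arrays used separate vessels, per the labels. Array numbers are in accession order, and same-numbered arrays of the phases share 1 or both vessels. Their deviations from the phase means correlated at 0.082, 0.216 and -0.045, and those of differently numbered arrays at -0.281 to 0.283. The main model has no block, and blocked values are given beside the calls they end.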

Additional observations from a re-analysis of the deposited data

How the results depend on the processing

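No sensor that passed changed sign under any alternative; among values that did not pass, MTL1 went to -0.03 in mid-exponential phase and 0.13 for the difference without mid-exponential array 2, SLG1 in stationary phase to -0.01 without stationary array 1 or from its plain well and to -0.04 in the authors' deposited table, which also gave WSC3 0.02 there. SLG1 fell to 0.05 in mid-exponential phase when read from its plain well. The limma count of sensors passing in mid-exponential phase was 1 and fell to 0 with a dye term, with each phase fitted alone and with the array number as a replicate block, and ranged from 0 to 1 as arrays were left out. In stationary phase the count was 2, and it was 1 with a dye term, 1 with genes measured on all 6 arrays (WSC2 is not among them), 1 in the authors' deposited table, 0 with arrays brought to 1 spread, 0 with each phase alone, 0 with the replicate block and from 0 to 1 as arrays were left out. The replicate block gave MID2 an adjusted p of 0.252 and 0.121 and called 0 genes in either phase, with 481 and 839 at an unadjusted p under 0.05. The 0 pathway genes passing in mid-exponential phase became 5 with arrays brought to 1 spread and 11 in the authors' deposited table, and stayed 0 as arrays were left out. Without mid-exponential array 1, 2 or 3 or stationary array 1, limma called 0 genes of any kind in mid-exponential phase. Counts of 0 from those fits do not set the sensors or pathway genes apart. The 4 in stationary phase became 1 with arrays brought to 1 spread, 2 with genes on all 6 arrays, 0 with the block, 0 with each phase alone and 0 to 2 as arrays were left out. MID2 relative to chromosome XII passed in 0 phases, in 0 when any array was left out, and in 1 with arrays brought to 1 spread, with genes on all 6 arrays and with robust variances. Over all genes, mid-exponential calls were 7 higher and 2 lower, and 118 and 56 with arrays brought to 1 spread; stationary calls were 128 and 78, and 19 and 11 there. Centring arrays on genes off chromosome XII was chosen after seeing the data; it changed no count of sensors or pathway genes and gave 139 higher and 79 lower stationary calls. Missing spots limit the stationary values of MTL1, WSC2, WSC3 and WSC4. The causes were not tested.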
